A study of Mus musculus with 38 samples.

Results

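The Myc locus was described here through every ChIP-seq peak whose centre lay from 100 kb before the Myc gene body to 2 Mb after its 3′ end. These members were chosen by position and not by signal, and they numbered 321 of the 359759 peaks in 17 peak lists. The window ran over 2.10 Mb of chromosome 15 (chr15:61885391-63990374, mm10). Myc itself (ENSMUSG00000022346.15) lies on the forward strand at chr15:61985391-61990374, and all distances below are in kb from its start, positive in the direction of transcription. Of 31 GENCODE genes with a start in the window, 5 were protein-coding, namely Myc, Gsdmc, Gsdmc2, Gsdmc3 and Gsdmc4.

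The cells were Cas9-LP lines, lymphoid progenitors (LPs) grown from the fetal liver of mice with a Rosa26-Cas9 knock-in and no Ebf1, so that every group lacked this B-lineage factor and carried Cas9. LP cells were kept on OP9 stroma without a Notch ligand. Phase 1 and Phase 2 cells were kept on OP9-DLL4, the same stroma with the Notch ligand DLL4, where Phase 1 cells for RUNX1 had spent 2 days, and the time of the Phase 2 cells for Notch1-IC was not given in the sources used here. Antibodies to RUNX1, CTCF, the Mediator subunit Med12 and the acetyltransferase p300 were used in LP and Phase 1 cells, and an antibody mixture to the intracellular domain of Notch1 (Notch1-IC) was used at both of these stages and in Phase 2 cells. Cells that had been transduced with retroviral guides, 3 to 5 days earlier, gave the remaining lists, of RUNX1 in LP cells with sgCont or sgCTCF, of RUNX1 in Phase 1 cells with sgCont or sgMed12, and of Med12 in Phase 1 cells with sgCont or sgCbfb. Cbfb is the binding partner of the RUNX proteins, and sgCont targets luciferase, which the mouse genome does not hold. For guide-transduced cells the study notes that low cell numbers made the ChIP-seq noisier. Each list combined 2 replicates, so no value below carries an error between cultures, and intervals cover counting error only. A missing peak says only that no reproducible peak reached the authors' minimum score of 15.

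MYC is a transcription factor that drives ribosome production, metabolism and cell division, and the onset of T cell development is a stage of strong proliferation. The gene sits at the edge of a desert with few other genes, in which distant enhancers act on it in a tissue-dependent way. The stretch from 1.2 to 1.4 Mb after the start is known for a Notch-dependent enhancer of Myc in T cells (N-Me), and the stretch from 1.6 to 1.8 Mb for a cluster of enhancers that is used by blood stem and progenitor cells (BENC). RUNX1 and Notch1-IC with its DNA-binding partner RBPJ are sequence-specific regulators, Mediator and p300 are coactivators found at active enhancers, and CTCF is an architectural factor that stops cohesin at sites in a given orientation.

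Peaks of all lists that shared at least 1 bp were merged into elements, which gave 87 elements in the window. The sequences of the elements that the results turn on are given first (GRCm38.p6, the mm10 assembly, forward strand). Notch1-IC peaks are shown because few of them lay in the window, and capitals mark TGGGAA, the core of the RBPJ string GTGGGAA, on either strand. The Notch1-IC peak of Phase 2 at 1270.5 kb (chr15:63255757-63255929) and that at 1294.4 kb (chr15:63279747-63279919) each held the core once. The stretch shared by the Notch1-IC peaks of all 3 stages at 745.4 kb (chr15:62730735-62730820) held neither this core nor a RUNX string (TGTGGTT or TGCGGTT).
Notch1-IC at 1270.5 kb: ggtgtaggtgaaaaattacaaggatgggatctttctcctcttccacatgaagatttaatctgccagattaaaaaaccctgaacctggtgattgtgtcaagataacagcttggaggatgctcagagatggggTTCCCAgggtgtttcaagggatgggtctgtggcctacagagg
Notch1-IC at 1294.4 kb: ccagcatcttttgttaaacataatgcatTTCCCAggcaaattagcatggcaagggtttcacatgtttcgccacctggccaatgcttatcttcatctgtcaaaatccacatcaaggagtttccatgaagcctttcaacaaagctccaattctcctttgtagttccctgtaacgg
Notch1-IC at 745.4 kb: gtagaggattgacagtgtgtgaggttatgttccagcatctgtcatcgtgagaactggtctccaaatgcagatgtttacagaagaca

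The Phase 2 Notch1-IC peak at 1285.2 kb (chr15:63270538-63270710) lay beside the element at 1270.5 kb and is shown with its AP-1 string (TGACTCA or TGAGTCA) in capitals. The RUNX1 peak listed with sgMed12 at 1663.0 kb (chr15:63648211-63648469) is shown because it was the one RUNX1 peak shared by both guide lists of Phase 1, and capitals mark its RUNX strings, which lie on opposite strands 3 bases apart. The stretch at 1672.8 kb (chr15:63657950-63658221), shared by the RUNX1, Med12 and p300 peaks of both stages, held the highest p300 scores of the window. It contained no exact match to the RUNX, AP-1, PU.1 (GAGGAAGT) or RBPJ core strings, and near matches were not counted.
Notch1-IC at 1285.2 kb: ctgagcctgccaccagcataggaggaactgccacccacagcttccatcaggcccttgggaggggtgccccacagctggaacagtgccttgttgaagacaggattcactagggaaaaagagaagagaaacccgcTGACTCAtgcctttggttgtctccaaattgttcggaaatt
RUNX1 at 1663.0 kb: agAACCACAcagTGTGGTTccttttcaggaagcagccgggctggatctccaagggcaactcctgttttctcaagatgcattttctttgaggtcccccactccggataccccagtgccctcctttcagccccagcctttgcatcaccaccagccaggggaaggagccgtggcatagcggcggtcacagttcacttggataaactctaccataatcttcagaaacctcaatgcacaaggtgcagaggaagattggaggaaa
Shared at 1672.8 kb: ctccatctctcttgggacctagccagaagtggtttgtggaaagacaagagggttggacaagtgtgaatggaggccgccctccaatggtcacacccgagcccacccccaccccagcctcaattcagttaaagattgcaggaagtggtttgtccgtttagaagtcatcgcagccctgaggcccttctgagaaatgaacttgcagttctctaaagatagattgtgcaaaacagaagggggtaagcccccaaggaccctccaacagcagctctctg

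A CTCF string is directional, and 4 elements with CTCF peaks held an exact match. The match at -1.9 kb (chr15:61983411-61983462), just before Myc, lay on the forward strand, and those at 349.3 kb (chr15:62334782-62334833), 827.9 kb (chr15:62813266-62813317) and 1786.4 kb (chr15:63771761-63771812) lay on the reverse strand. Each is printed on the strand of the match, with the match in capitals and 20 bases on either side.
CTCF at -1.9 kb: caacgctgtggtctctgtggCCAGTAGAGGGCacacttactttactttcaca
CTCF at 349.3 kb: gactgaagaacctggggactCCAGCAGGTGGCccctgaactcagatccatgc
CTCF at 827.9 kb: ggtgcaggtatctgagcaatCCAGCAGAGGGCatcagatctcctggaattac
CTCF at 1786.4 kb: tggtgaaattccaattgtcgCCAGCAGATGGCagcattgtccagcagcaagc

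All 4 factors mapped in LP and Phase 1 cells occupied the window in both stages, and the counts of RUNX1, Med12 and p300 peaks were higher in Phase 1. RUNX1 had 26 peaks in LP cells and 43 in Phase 1 cells. Med12 had 21 and 43 peaks, and p300 had 36 and 62. CTCF had 27 and 26. Per Mb, the window held 12.4 LP RUNX1 peaks, beside 11.7 over the genome, and 20.4 Phase 1 RUNX1 peaks, beside 14.1. For Med12 the values were 9.98 beside 11.0 in LP cells and 20.4 beside 14.4 in Phase 1 cells, and for p300 they were 17.1 beside 13.3 and 29.5 beside 18.0. CTCF was sparser in the window than over the genome in both stages, with 12.8 beside 16.7 peaks per Mb in LP cells and 12.4 beside 16.4 in Phase 1 cells. Notch1-IC had 4 peaks in LP cells, 2 in Phase 1 cells and 6 in Phase 2 cells, of 1585, 152 and 352 in the lists. With guides, RUNX1 had no peak in LP cells with sgCont or sgCTCF, 2 in Phase 1 cells with sgCont and 1 with sgMed12. These lists held 975, 874, 1550 and 2094 peaks. Med12 had 13 peaks with sgCont and 9 with sgCbfb. Per Mb these were 6.18, beside 6.99 over the genome, and 4.28, beside 6.64.

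**Figure D1:**
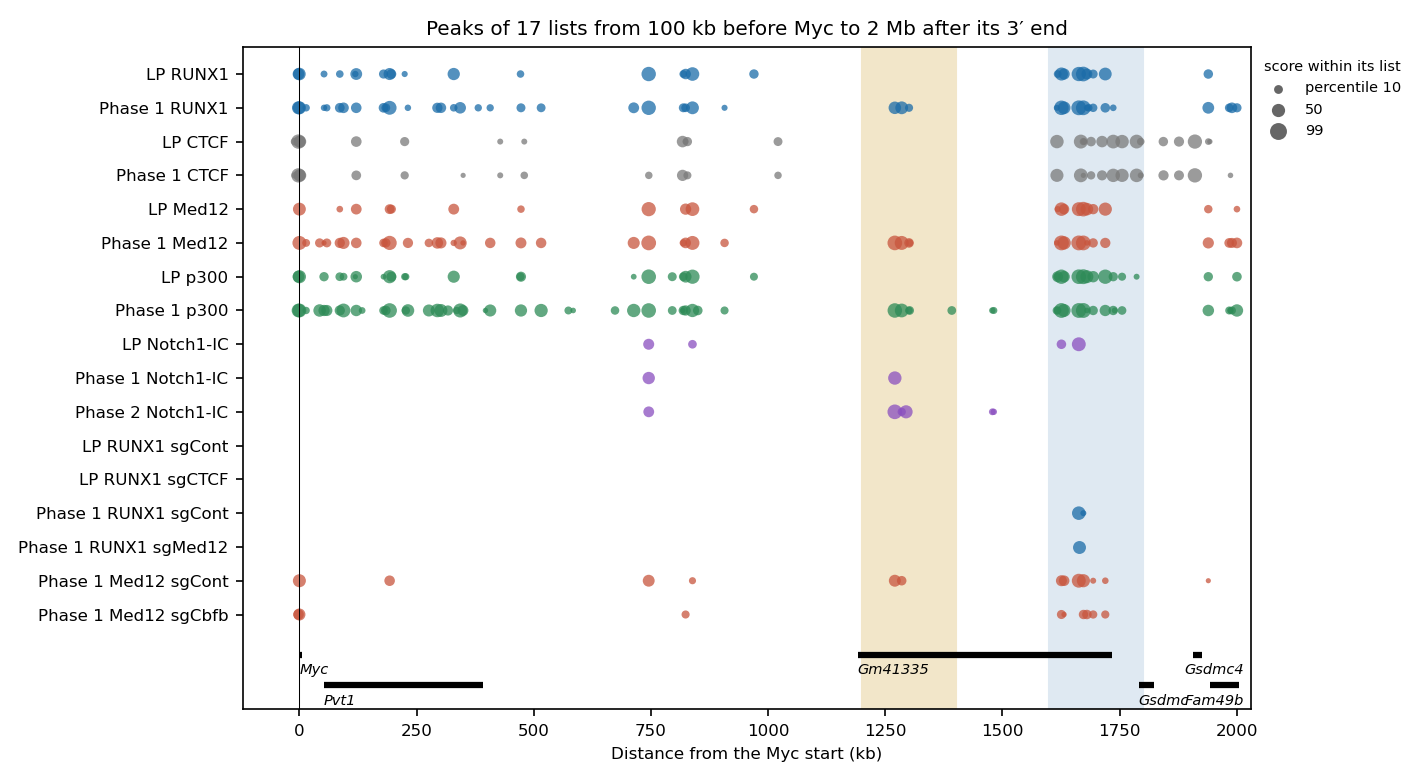
Each point is 1 peak of the Myc window, placed by the distance of its centre from the Myc start (kb) in the row of its list, with its area rising with the percentile of its score within that list and its colour giving the antibody. The stretch from 1.2 to 1.4 Mb (yellow) holds peaks in Phase 1 and Phase 2 rows and in none of the LP rows, whereas the stretch from 1.6 to 1.8 Mb (blue) holds 94 of the 321 peaks, from both stages. Bars at the bottom are genes.

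Of the 87 elements, 46 had RUNX1, CTCF, Med12 or p300 peaks in both stages (52.9%, beside 67.8% of all elements), 34 had them in Phase 1 alone and 6 in LP alone, and 1 was seen with Notch1-IC alone, beside 0.712% of all elements in no more than Notch1-IC or guide lists. Elements of the window were thus in Phase 1 alone in 39.1% of cases, beside 23.6% of the 100089 elements made in the same way over the genome, and in LP alone in 6.90%, beside 7.84%. Counted peak by peak, 23 of the 43 Phase 1 RUNX1 peaks of the window had no overlapping LP RUNX1 peak (53.5%, 95% Wilson interval 38.9 to 67.5), beside 30.7% of the whole list. For Med12 in Phase 1 it was 25 of 43 (58.1%, 43.3 to 71.6), beside 38.2%. For p300 in Phase 1 it was 33 of 62 (53.2%, 41.0 to 65.1), beside 41.6%, a list-wide share that lies within the window's interval. In the other direction, 6 of 26 LP RUNX1 peaks had no Phase 1 counterpart (23.1%, 11.0 to 42.1), beside 16.8% of the list, 3 of 21 LP Med12 peaks (14.3%, 4.98 to 34.6), beside 19.5%, and 7 of 36 LP p300 peaks (19.4%, 9.75 to 35.0), beside 20.7%. All 3 of these list-wide shares lie within the intervals. For CTCF, 4 of 27 LP peaks (14.8%, 5.92 to 32.5, beside 9.55%) and 3 of 26 Phase 1 peaks (11.5%, 4.00 to 29.0, beside 8.35%) had no counterpart, and both list-wide shares again lie within the intervals.

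The Phase 1 lists of RUNX1, Med12 and p300 were longer than the LP lists, so the lists of a pair were also compared with the same number of top-scored peaks from each. For p300 the shares of both stages were then close, with 15 of 37 Phase 1 peaks (40.5%) and 14 of 36 LP peaks (38.9%) without a counterpart, both beside 30.9% of the lists. For RUNX1 the values were 14 of 31 Phase 1 peaks (45.2%) and 9 of 26 LP peaks (34.6%), beside 22.3%. For Med12 they were 19 of 35 Phase 1 peaks (54.3%) and 5 of 21 LP peaks (23.8%), beside 27.4%. For CTCF they were 3 of 26 in each stage (11.5%), beside 8.88%. Peaks without a counterpart had a lower median score than the rest of their list in the window for all 4 factors. In the full lists the median score of the Phase 1 RUNX1 peaks without an LP counterpart was 25.5, beside 45.7 for the rest of that list in the window, and for p300 it was 25.7 beside 49.4.

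**Figure D2:**
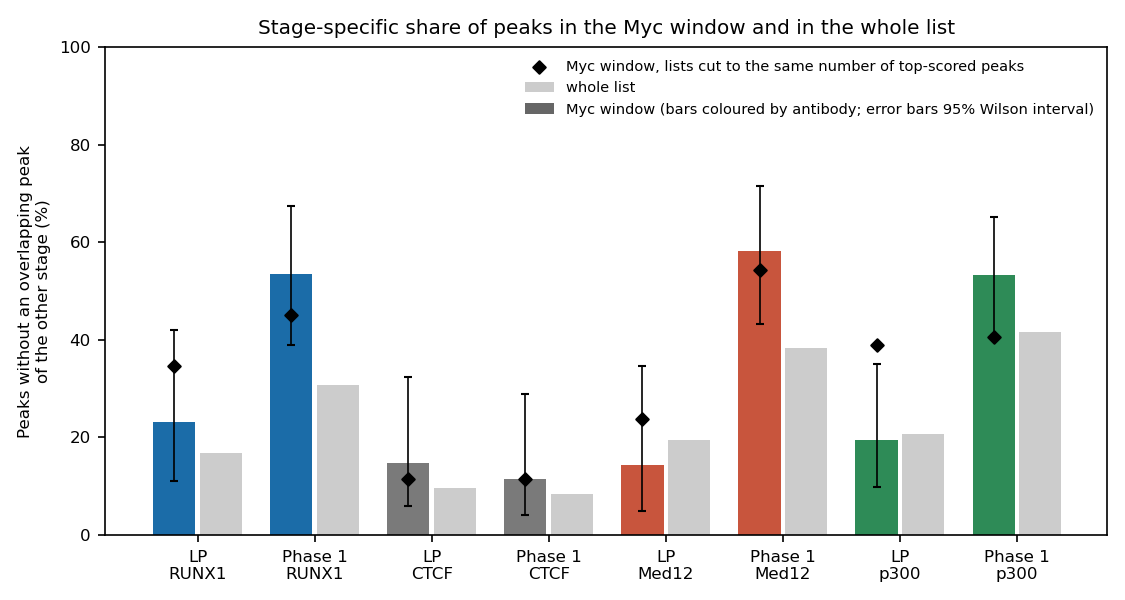
Bars give the percentage of peaks that no peak of the other stage overlapped, for the Myc window (coloured, with 95% Wilson intervals that cover counting error only) and for the whole list (grey), and diamonds give the window's value with both lists cut to the same number of top-scored peaks. The coloured Phase 1 bars of RUNX1, Med12 and p300 lie between 53.2% and 58.1%, above their grey bars, and the diamonds of LP and Phase 1 p300 lie at 38.9% and 40.5%.

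Coactivators accompanied RUNX1 at most of its peaks in the window. In LP cells 19 of 26 RUNX1 peaks overlapped a Med12 peak (73.1%, 53.9 to 86.3, beside 84.7% of the list) and 26 of 26 overlapped a p300 peak (interval from 87.1% up, beside 90.8%). In Phase 1 cells 39 of 43 overlapped Med12 (90.7%, 78.4 to 96.3, beside 86.0%) and 40 of 43 overlapped p300 (93.0%, 81.4 to 97.6, beside 87.8%). CTCF was met by 7 of 26 LP RUNX1 peaks (26.9%, 13.7 to 46.1, beside 23.2%) and by 7 of 43 in Phase 1 (16.3%, 8.12 to 30.0, beside 15.7%). All of these list-wide shares lie within the intervals of the window. Seen from p300, 26 of 36 LP peaks (72.2%, 56.0 to 84.2, beside 80.3%) and 40 of 62 Phase 1 peaks (64.5%, 52.1 to 75.3, beside 68.6%) overlapped RUNX1. Seen from CTCF, 7 of 27 LP peaks (25.9%, 13.2 to 44.7, beside 16.4%) and 7 of 26 Phase 1 peaks (26.9%, 13.7 to 46.1, beside 13.4%) did so, and the last list-wide share lies just under its interval.

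The Myc promoter was held by 10 of the 17 lists, and it was held in both stages. In LP cells the peaks within 1 kb of the start scored 75.2 for RUNX1, 85.0 for Med12, 112.1 for p300 and 88.1 for CTCF. In Phase 1 cells they scored 87.2 for RUNX1, 105.5 for Med12, 135.0 for p300 and 97.4 for CTCF. Scores were not compared between lists, so each peak was placed by its percentile within its own list, the share of peaks with at most that score. On that scale the promoter stood at 68.2 in LP and 74.6 in Phase 1 for RUNX1, at 71.9 and 86.6 for Med12, at 75.4 and 85.4 for p300, and at 59.1 and 61.0 for CTCF. Med12 was also listed there with sgCbfb, at a score of 45.7 (percentile 61.2) beside 56.6 (percentile 73.5) with sgCont. None of the Notch1-IC lists and none of the RUNX1 lists with guides had a peak there.

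At -1.9 kb lay the highest CTCF scores of the window, 232.1 in LP cells and 250.1 in Phase 1 cells, on the forward-strand match printed above. RUNX1 (56.5 and 86.6) and p300 (70.2 and 119.7) were present at this element in both stages. Med12 was listed there with sgCbfb (32.2) and in no other Med12 list. The next highest CTCF scores lay at 1910.7 kb, in an intron of Gsdmc4 (215.5 in LP cells and 248.5 in Phase 1 cells), and at 1667.3 kb, inside the blood enhancer stretch (190.0 and 191.7), and neither element held a peak of another factor. In all, 30 elements had a CTCF peak, and 15 of them had no RUNX1, Med12 or p300 peak in either stage, beside 75.7% of all elements with a CTCF peak in the genome.

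Pvt1, the long noncoding RNA gene that follows Myc from 52.6 to 392.7 kb, held 73 peaks in 22 elements. Of these elements 12 were in Phase 1 alone, 2 in LP alone and 8 in both, beside 23.6%, 7.84% and 67.8% of all elements. The highest p300 scores lay in an intron at 192.5 kb. Its p300 score was 114.2 in LP cells and 270.8 in Phase 1 cells (percentiles 76.0 and 96.0), its RUNX1 score was 63.3 and 126.6 (61.6 and 85.3), and its Med12 score was 35.3 and 121.9 (36.4 and 90.1). This element thus ranked higher within the Phase 1 list for all 3 factors. At the promoter of Pvt1 itself, at 52.6 kb, RUNX1 was low in its lists, at 19.3 and 17.2 (percentiles 11.2 and 7.64). Med12 was at the minimum score in Phase 1 cells. There p300 scored 32.5 and 46.6 (31.3 and 51.3), so in Phase 1 cells it stood near the middle of its list.

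Between the end of Pvt1 and 1 Mb lay 21 elements. Of these 11 were in both stages, 8 in Phase 1 alone and 2 in LP alone, beside 67.8%, 23.6% and 7.84% of all elements. The element at 745.4 kb, in an intron of the long intergenic noncoding RNA Gm41333, had peaks in 11 lists and was the one place in the window with Notch1-IC in all 3 stages. Notch1-IC scored 20.0 in LP cells, 22.1 in Phase 1 cells and 20.6 in Phase 2 cells, at percentiles 48.8, 65.1 and 46.6 of these lists. The LP Notch1-IC list was much the longest of the 3, and with all 3 cut to the same number of top-scored peaks none of its 4 peaks in the window was left, so every LP Notch1-IC peak named here and its absence with ligand rests on that longer list. At that length the Phase 2 Notch1-IC peak of this element, rank 189 of 352, was lost as well. RUNX1 scored 178.9 in LP cells and 182.2 in Phase 1 cells, both at percentile 92.8. Med12 scored 159.4 and 217.5 (percentiles 90.4 and 98.0) and p300 scored 273.3 and 257.5 (95.3 and 95.5). The element was therefore high in both stages, with RUNX1 and p300 at nearly the same percentile in each. At 838.7 kb Notch1-IC had a low peak in the longer LP list alone (16.9, percentile 25.2), and RUNX1 (110.9 and 78.1), Med12 (117.4 and 104.3) and p300 (199.6 and 98.9) were present in both stages.

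The stretch from 1.2 to 1.4 Mb, where the Notch-dependent enhancer lies, held 18 peaks in 6 elements, and none of them came from an LP list. In Phase 1 alone were 5 of these elements, beside 23.6% of all elements. The other had Notch1-IC alone, beside 0.712% of all elements in no more than Notch1-IC or guide lists. None was in both stages, beside 67.8%, or in LP alone, beside 7.84%. The element at 1270.5 kb was the strongest. Notch1-IC scored 166.4 in Phase 2 cells, rank 12 of 352 peaks, and 25.7 in Phase 1 cells, rank 34 of 152. In Phase 1 cells p300 scored 232.8 (percentile 94.5), Med12 191.7 (97.1) and RUNX1 69.0 (67.0), and Med12 with sgCont scored 42.6 (60.0). No antibody had a peak there in LP cells, and CTCF had none in either stage. The element lies in an intron of the long intergenic noncoding RNA Gm41335, which runs on the reverse strand from 1191.4 to 1732.9 kb and so covers the whole Notch-dependent stretch and part of the blood enhancer stretch, and it covers the start of another, Gm49014, at 1270.5 kb.

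At 1285.2 kb Phase 1 RUNX1, Med12 and p300 met Notch1-IC of Phase 2 alone, with lower scores than at 1270.5 kb for each but RUNX1. There p300 scored 125.8 (percentile 83.9), Med12 106.0 (86.7), RUNX1 77.1 (70.7) and Med12 with sgCont 26.6 (33.3), and Phase 2 Notch1-IC 16.7 (21.6). At 1294.4 kb lay a Notch1-IC peak of Phase 2 (32.2, percentile 75.3, rank 88), where no other factor had a peak in LP or Phase 1 cells. In Phase 2 cells no factor other than Notch1-IC was mapped. At 1300.8 kb Phase 1 RUNX1 (22.5), Med12 (28.3) and p300 (20.0) were all low in their lists, at percentiles 20.7, 33.7 and 14.2. The other elements, at 1302.0 and 1392.0 kb, held Phase 1 Med12 (19.6, at the former) and p300 (25.7 at each). Beyond them lay elements at 1478.5 and 1481.7 kb, with no RUNX1 or Med12 peak in LP or Phase 1 cells. There Notch1-IC of Phase 2 (15.8 and 15.6) met Phase 1 p300 (17.4 and 19.1). These scores were low in their lists, at percentiles 10.5 and 7.67 for Notch1-IC and 7.50 and 12.1 for p300. The Phase 2 Notch1-IC list was longer than that of Phase 1. With lists of the same length 2 of its 6 peaks in the window were left, and those at 1285.2, 1478.5 and 1481.7 kb were lost.

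None of the Notch1-IC peaks of the window had the RBPJ string GTGGGAA within 200 bp around its centre (0 of 4 in LP cells, 0 of 2 in Phase 1 cells and 0 of 6 in Phase 2 cells), beside 4.42%, 36.2% and 26.2% of the lists. The core TGGGAA, which was searched after this had been seen, was held by 1 of the 2 Phase 1 peaks and 2 of the 6 Phase 2 peaks, beside 55.3% and 51.3% of the lists, and by 0 of the 4 LP peaks, beside 13.7%. The RUNX string was also held by none of them, beside 33.3% of the LP list, 25.7% of the Phase 1 list and 29.4% of the Phase 2 list. With so few peaks these counts are a description. A match is not a bound site, and its absence says only that these letters are not in these windows.

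The stretch from 1.6 to 1.8 Mb, where the blood enhancer cluster lies, was the most densely occupied, with 94 peaks in 19 elements. Of these elements 16 were seen in both stages (beside 67.8% of all elements), 2 in Phase 1 alone (beside 23.6%) and 1 in LP alone (beside 7.84%). The element at 1672.8 kb had the highest p300 scores of the window, 990.0 in LP cells (rank 42 of 36182) and 802.9 in Phase 1 cells (rank 99 of 49116). RUNX1 scored 264.4 and 306.9 there (percentiles 97.7 and 98.3) and Med12 230.3 and 262.2 (96.3 and 98.9). CTCF was listed weakly (22.4 and 16.2). The element was near the top of its lists in both stages.

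The element at 1663.0 kb had the highest Phase 1 scores for RUNX1 (380.2, rank 291 of 38399) and Med12 (418.7, rank 68 of 39132) and the second highest for p300 (557.4, rank 318 of 49116). In LP cells RUNX1 scored 165.8 (percentile 91.6), Med12 131.2 (85.7) and p300 302.9 (96.3). Notch1-IC had a peak in LP cells (35.5, percentile 85.5, rank 231 of 1585) and in neither stage with ligand, a contrast that is lost with lists of the same length. At 1626.0 kb the Phase 1 scores were 199.6 for RUNX1, 299.0 for Med12 and 466.3 for p300 (percentiles 94.2, 99.3 and 98.9), and the LP scores were 88.4, 107.5 and 220.5 (74.1, 80.0 and 92.5), with a weak LP Notch1-IC peak (17.8, percentile 33.4). At 1631.6 kb the percentiles of RUNX1, Med12 and p300 were lower in LP cells than in Phase 1 cells, as at 1626.0 kb. RUNX1 scored 48.6 and 74.0 there (51.4 and 69.4), Med12 40.7 and 79.8 (42.3 and 78.0), and p300 60.3 and 84.0 (53.7 and 72.5).

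At 3 elements farther on the percentiles were higher in LP cells. At 1680.3 kb p300 stood at percentile 73.0 in LP cells (score 104.0) and 3.04 in Phase 1 cells (15.9), Med12 at 67.8 (76.3) and 2.47 (15.6), and RUNX1 at 47.6 (44.3) and 6.83 (17). At 1719.5 kb p300 stood at percentile 92.0 (215.7) and 52.5 (48.0), Med12 at 75.9 (95) and 40.9 (32.9), and RUNX1 at 70.8 (80.7) and 33.5 (29.7). At 1693.7 kb the differences were smaller, with p300 at 53.1 and 31.9, Med12 at 41.3 and 31.7, and RUNX1 at 27.8 and 23.5. Among the elements of the cluster with RUNX1, Med12 and p300 peaks of both stages, those at 1626.0, 1631.6 and 1663.0 kb were thus higher in the Phase 1 lists and those at 1680.3, 1693.7 and 1719.5 kb higher in the LP lists, with the element at 1672.8 kb close to level. Other elements did not follow this order. At 1617.9 kb, nearer to Myc, RUNX1 and Med12 were listed in LP cells alone, and at 1684.2 kb RUNX1 (20.4) and at 1739.7 kb p300 (16.5) were listed in Phase 1 cells alone.

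Over the window, 15 elements had RUNX1, Med12 and p300 peaks of both stages, 7 of them in this stretch. The tally of their direction depended on the scale, since the Phase 1 lists were longer. By percentile 7 of the 15 stood higher in Phase 1 for all 3 factors, 5 stood higher in LP cells for all 3, and 3 were mixed, beside 43.6% and 19.3% of the 21357 such elements of the genome in Phase 1 and LP cells. By rank the counts were 6, 6 and 3, beside 22.3% and 43.9%. By rank, the promoter and the elements at 192.5, 1626.0, 1631.6, 1663.0 and 1939.4 kb were in the first group, and those at 121.4, 824.0, 838.7, 1680.3, 1693.7 and 1719.5 kb in the second. Of these, the element at 838.7 kb was mixed by percentile, with Med12 at 82.7 in LP cells and 86.3 in Phase 1 cells, and the element at 86.2 kb, mixed by rank, stood higher in Phase 1 by percentile. The elements at 745.4 and 1672.8 kb were mixed on both scales. The lists are from combined replicates, so how far such ranks vary between cultures was not measured.

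The named elements that remain in this stretch were led by CTCF or were weak. At 1616.3 kb strong CTCF (156.9 and 143.7) lay with low p300 (22.4 and 24.2), and RUNX1 (16.7) and Med12 (15.7) of Phase 1. At 1736.5 kb strong CTCF (177.4 and 164.3) lay with low p300 (32.2 and 29.0) and Phase 1 RUNX1 (17.8). At 1617.9 kb p300 (51.6 and 21.4) lay with LP RUNX1 (22.3) and Med12 (17.6). CTCF was present at 10 elements of the stretch in all, and 5 of these held no RUNX1, Med12 or p300 peak (beside 75.7%).

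**Figure D3:**
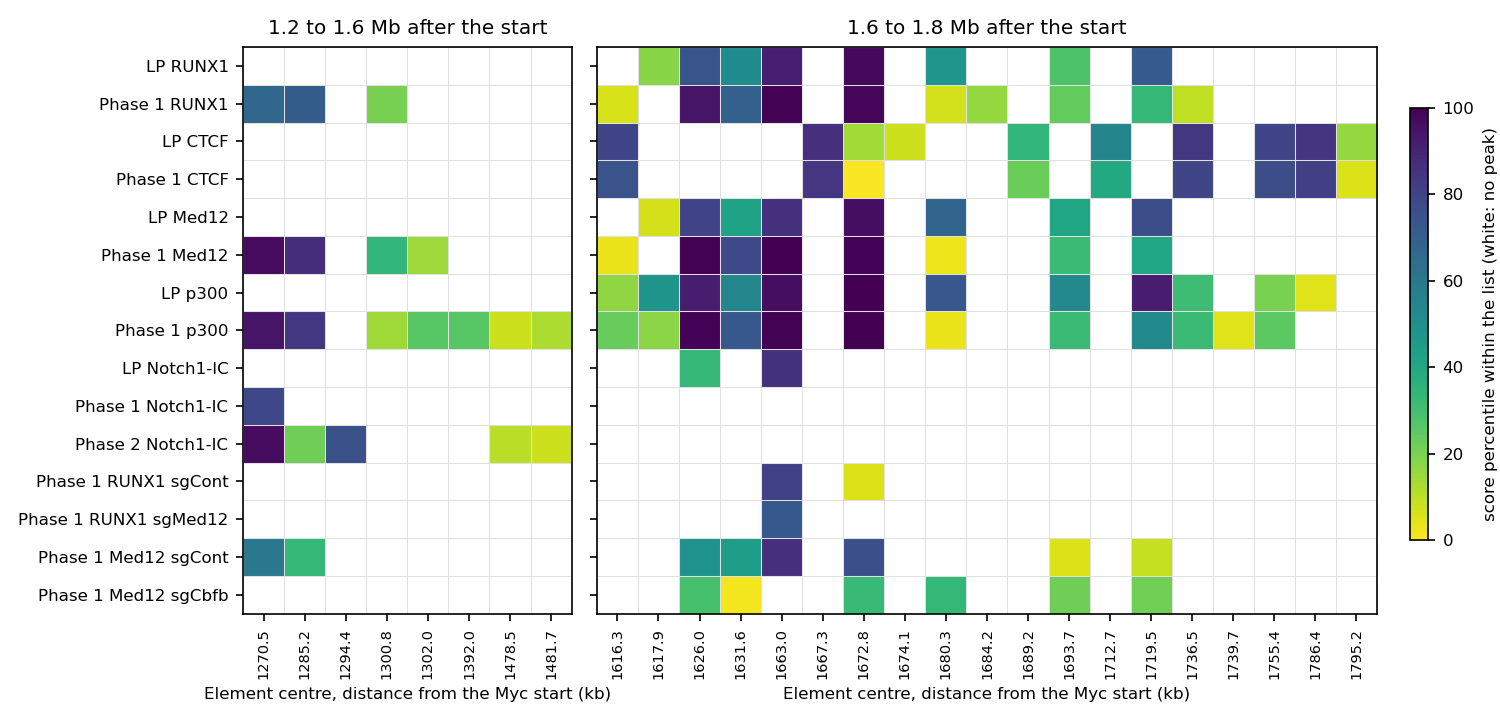
Each column is 1 element beyond 1.2 Mb, given by the distance of its centre from the Myc start (kb), each row is 1 list, and colour gives the percentile of the score within that list (white for no peak). The LP rows are white from 1.2 to 1.6 Mb, and between 1626.0 and 1719.5 kb the RUNX1, Med12 and p300 rows are darker in Phase 1 at the nearer elements and darker in LP at 1680.3 and 1719.5 kb.

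With guides, Med12 in Phase 1 cells had 13 peaks in the window with sgCont, of which 6 were overlapped by a peak with sgCbfb (46.2%, 23.2 to 70.9), beside 67.8% of the whole list. The interval holds the list-wide share. With a minimum score of 30 in both lists the share in the window was 12.5% (1 of 8). That cut left only 2 sgCbfb peaks in the window, and no list-wide share at that score stands beside it. The peaks with no sgCbfb counterpart lay at 192.5, 745.4, 838.7, 1270.5, 1285.2, 1663.0 and 1939.4 kb. They included both strong elements of the Notch-dependent stretch and the highest sgCont score of the window, 79.3 at 1663.0 kb (percentile 86.1). Their scores ran from 15 to 79.3 with a median of 31.8, beside a median of 24.1 for all sgCont peaks of the list without a counterpart. The 6 others lay at the promoter and at 1626.0, 1631.6, 1672.8, 1693.7 and 1719.5 kb, and their sgCont scores ran from 16.3 to 59.5 with a median of 33.4, beside 44.7 for all such peaks of the list.

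Of the 7 peaks without a counterpart, 5 overlapped an LP Med12 peak, beside 75.8% of such peaks of the list, and the 2 that did not were those at 1270.5 and 1285.2 kb. All 6 peaks with a counterpart overlapped an LP Med12 peak, beside 95.4% of such peaks of the list, so both counts were near the list-wide shares. All 13 overlapped a Phase 1 RUNX1 peak, beside 94.4% of the list, and a Phase 1 Med12 peak, beside 93.2%. With sgCbfb, 6 of 9 peaks of the window were overlapped by an sgCont peak (66.7%, 35.4 to 87.9), beside 71.4%. Of the 9, 8 overlapped a Phase 1 Med12 peak without guides, beside 78.6%, 7 an LP Med12 peak, beside 84.0%, and 8 a Phase 1 RUNX1 peak, beside 78.7%. The 3 without an sgCont counterpart lay at -1.9 kb (32.2), at 824.0 kb (21.2) and at 1680.3 kb (26.6). The last was an element where Med12 without guides stood at percentile 67.8 in LP cells (76.3) and 2.47 in Phase 1 cells (15.6). At 1672.8 kb the sgCbfb peak (26.1, percentile 32.2) overlapped the sgCont peak (59.5, percentile 75.5) and reached neither the LP nor the Phase 1 RUNX1 peak of that element.

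**Figure D4:**
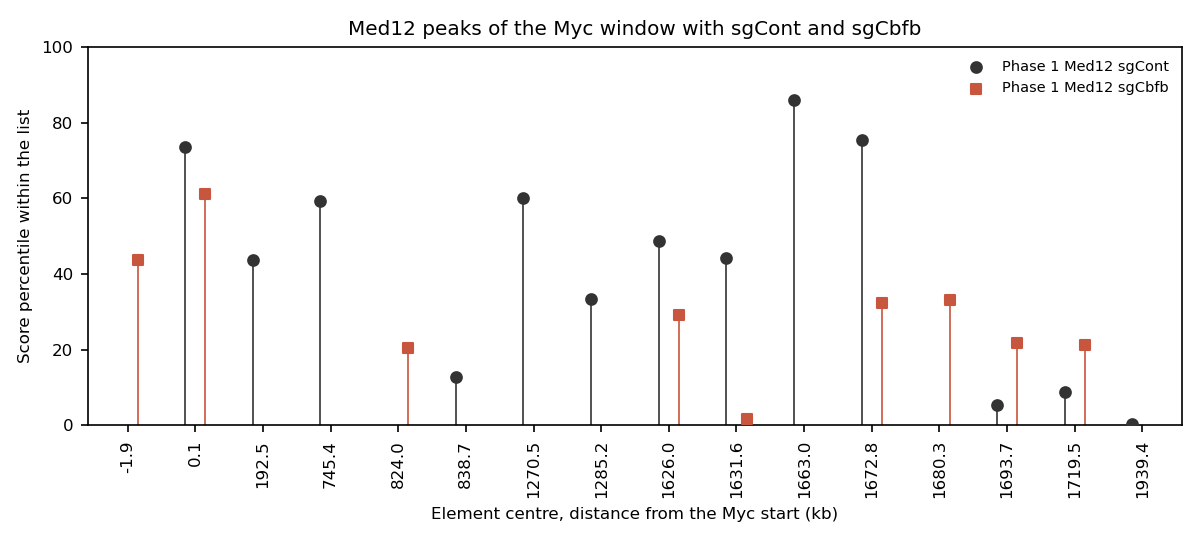
Each position on the horizontal axis is 1 element with a Med12 peak in guide-transduced Phase 1 cells, ordered by distance from the Myc start (kb), and the height is the percentile of the score within the sgCont list (black circles) or the sgCbfb list (red squares). A symbol is missing where the list has no peak, as for sgCbfb at 745.4, 1270.5, 1285.2 and 1663.0 kb.

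RUNX1 with guides was sparse at Myc. In Phase 1 cells with sgCont it had peaks at 1663.0 kb (36.0, rank 298 of 1550) and at 1672.8 kb (15.7, rank 1472), and with sgMed12 it had 1 peak, at 1663.0 kb (25.8, rank 574 of 2094). So 1 of the 2 sgCont peaks was overlapped with sgMed12, beside 71.0% of the list. In LP cells the sgCont list of 975 peaks and the sgCTCF list of 874 peaks had none in the window. No comparison was possible there.

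Exact strings in 200 bp around the element centre were counted over the window and over the 100089 elements of the genome. The RUNX string was held by 13 of 87 elements, beside 17.6% of all, the AP-1 string by 8, beside 8.8%, the PU.1 string by 5, beside 5.14%, the CTCF string by 3, beside 7.59%, and the RBPJ string by 1, beside 4.44%. As shares of the window these are 14.9%, 9.20%, 5.75%, 3.45% and 1.15%. The element at 1663.0 kb was not among these 13. Its RUNX strings lay near the start of the peak printed above, outside the 200 bp around the element centre.

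The promoters of the network in which MYC works were examined in the same way, with a peak counted when its centre lay within 1 kb of any annotated start. The network comprised 13 genes, namely Myc, Mycn and Mycl, their partner Max, the MAX-binding repressors Mxd1, Mxi1, Mxd3, Mxd4, Mnt and Mga, and Mlx, Mlxip and Mlxipl of the related MLX branch. RUNX1 peaks lay at 13 of them in LP cells, beside 49.8% of the 21924 protein-coding genes, and at 12 in Phase 1 cells, beside 50.7%. Med12 lay at 13 and 12, beside 49.2% and 49.4%, p300 at 12 and 13, beside 51.3% and 52.5%, and CTCF at 8 and 7, beside 29.6% and 28.6%. The protein-coding genes set beside the network were not matched to it for expression, so these counts are a description. Mlx was the gene without RUNX1 and Med12 in Phase 1 cells. With guides, Med12 lay at 12 promoters both with sgCont, beside 43.9%, and with sgCbfb, beside 44.2%, and a RUNX1 peak in LP cells with sgCTCF lay at 1, beside 2.72%, which was Mycn. The Notch1-IC lists had none, beside 1.13%, 0.269% and 0.169%. For RUNX1 the highest percentiles in LP and Phase 1 cells were those of Mxd1 (99.8 and 99.8) and Mnt (99.3 and 99), and for Med12 they were those of Mnt (99.1 and 99.7) and Mxd1 (98.4 and 97.3). The Myc promoter stood below both in each of these lists.

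Over all protein-coding genes, the promoters most like that of Myc in their percentiles over the 17 lists were those of Polr3b, Clasp1, Ramac, Kif20b and B3gnt2, with mean absolute differences of 1.57, 2.06, 2.39, 2.90 and 2.94 percentile points. All 5 had peaks in the same 10 lists as Myc, and so did 3030 of the 21924 genes, so this pattern of lists was a common one.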

How the data were processed

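The authors mapped ChIP-seq reads to mm10 with Bowtie 1.1.1, called peaks in HOMER's factor mode, and deposited those that passed the irreproducible discovery rate over 2 replicates with a normalized score of at least 15. The 17 deposited lists give, for each peak, its position and this peak score, whose scale the headers do not give. Scores were therefore ranked within a list and never compared between lists. The deposited Notch1-IC lists are shorter than the sets that the study describes, for a reason not given in the sources used here. Of 38 samples in 19 groups of 2, 4 inputs had no list. The files give no depth for a sample, and the study gives a single approximate figure for all, so a shorter list may mean lower depth as well as fewer sites.

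Peaks overlapped when they shared at least 1 bp, and merged peaks formed elements. GENCODE M21 gave the annotation, and sequences came from the NCBI RefSeq copy of GRCm38.p6, within whose chromosomes all searched peaks lay. Strings were searched on both strands in 200 bp, and the CTCF string by its 12-letter consensus. Shares have 95% Wilson intervals, which cover counting error only, and the same share over the whole list stands beside them. No test between conditions was made, since no list has replicates. Overlap and string search were tested on simulated data. Python 3.11.15, numpy 2.4.6, pandas 2.3.3, scipy 1.17.1, pysam 0.24.0, samtools 1.23.1 and matplotlib 3.10.9 were used.

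Named were all peaks within 1 kb of the Myc start, all Notch1-IC peaks, all RUNX1 peaks with guides, the 3 highest peaks of each other list without a guide, elements with at least 3 antibodies in the stretches at 1.2 to 1.4 and 1.6 to 1.8 Mb, and the 5 genes most like Myc. Other elements named with Med12 guide peaks, by rank direction or for a CTCF match were chosen after their values were seen. The window, the lists and the stretches were chosen with earlier results of these data known. Alternatives changed the overlap rule, the minimum score, the list length, the promoter peaks, the extent of the window and the string window.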

Additional observations from a re-analysis of the deposited data

How the results depend on the processing

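Of 119 values recomputed under alternatives, 77 stayed within the interval of the reported share or within 1.5 times the reported count, and 42 did not. Other overlap rules (a larger shared part of the shorter peak, or centres within 500 bp) and leaving out promoter peaks moved none. With a minimum score of 30 the window's counts were 17 LP and 21 Phase 1 RUNX1 peaks, 15 Phase 1 CTCF peaks, 26 Phase 1 Med12 peaks, 22 LP and 34 Phase 1 p300 peaks, 1, 0 and 2 Notch1-IC peaks in LP, Phase 1 and Phase 2, 8 and 2 Med12 peaks with sgCont and sgCbfb, and 1 and 0 RUNX1 peaks with sgCont and sgMed12 in Phase 1. At that score 0.0% of Phase 1 CTCF peaks lacked an LP counterpart, and 12.5% of sgCont Med12 peaks had an sgCbfb counterpart (1 of 8). For RUNX1 with sgCont in Phase 1 it was 0 of 1, since no sgMed12 peak of the window reached that score. With the same number of top-scored peaks in a pair, 38.9% of LP and 40.5% of Phase 1 p300 peaks lacked a counterpart, and the Notch1-IC counts were 0 in LP and 2 in Phase 2. With the window ending 1 Mb after Myc there were 17 and 26 RUNX1, 11 and 12 CTCF, 11 and 27 Med12, and 22 and 38 p300 peaks in LP and Phase 1 cells, 2, 1 and 1 Notch1-IC peaks, 4 and 3 Med12 peaks with sgCont and sgCbfb, and 0 RUNX1 peaks with sgCont or sgMed12 in Phase 1. In these cases the alternative itself removes peaks. In 100 bp the strings were held by 7 (RUNX), 3 (PU.1), 0 (RBPJ) and 3 (AP-1) elements, and with 1 mismatch allowed the CTCF string was held by 14. The RBPJ core, chosen after seeing the data, was held by 1 Phase 1 and 2 Phase 2 Notch1-IC peaks in place of 0. No paired analysis was possible because each list combines both replicates, and for the same reason no replicate could be left out. The depth behind each list, which the files do not give, limits every statement that a peak is missing.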
